A study of Mus musculus with 8 samples.

Results

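The DNA replication and nucleotide supply genes described here are 57 genes chosen by function, out of 13704 genes that had a read in at least 1 of 2 RNA-seq libraries of T helper 17 (Th17) cells. They were found by gene symbol, and all 57 had reads. Both libraries came from C57BL/6 mice. The WT library was made from wild-type cells, and the KO library from cells of TRIM28fl/fl x CD4cre mice, in which both Trim28 alleles are flanked by loxP sites and Cre is driven by the Cd4 promoter, so that the gene is lost in T cells before they become naive CD4+ cells. In both arms, naive CD4+CD25-CD62Lhi CD44low T cells of spleen and lymph nodes were activated with anti-CD3 and anti-CD28 on plates for 3 days. The cytokines added were IL-6 at 20 ng/ml and TGF-β at 0.5 ng/ml. After the 3 days the cells met anti-CD3 once more before their RNA was extracted. The number and age of the mice behind each library are not given in the sources used here. There was 1 library per genotype, so no difference below has a replicate check. Every interval and test covers counting error only and compares the libraries, not the genotypes.

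A dividing cell copies its genome once per cycle. In G1, the origin recognition complex (ORC), Cdc6 and Cdt1 load the ring-shaped MCM2-7 complex onto DNA. At the start of S phase, kinases, Cdc45 and the GINS complex turn the loaded rings into active helicases, and polymerases alpha, delta and epsilon copy the unwound strands with the help of the PCNA clamp, its loader RFC and the single-strand binding protein RPA. Ribonucleotide reductase and thymidylate enzymes supply the deoxynucleotides. Many of these genes are known targets of E2F transcription factors, and activated T cells, which divide several times within days, are known to express them at high levels.

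The libraries held 6650066 reads on 13078 genes (WT) and 6185108 reads on 12754 genes (KO). Trim28 (chr7:13024152-13031032, GRCm38) had 4485 WT and 180 KO reads, a log2 fold change (KO over WT) of -4.53 with an exact 95% interval of -4.76 to -4.32, lower in the library labelled KO. T cell markers such as Cd3e (4407 and 4778 reads) and Cd4 (7904 and 6598) were present in both. Of 7 tested Th17 genes, 4 (Il17f, Il17a, Rora and Il21) were called lower, that is, at least 2-fold with an adjusted p under 0.05, with a median of -1.42. Markers of other cells were rare. B cell markers summed to 104 WT and 80 KO reads, myeloid markers to 26 and 19, dendritic cell markers to 24 and 29, and CD8 markers to 53 and 29, and the lists for natural killer cells and red cells had 0 reads.

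The letters that E2F factors are known to bind were looked for because they are the sequence feature best known to be shared by such genes. The search covered 300-base windows of RefSeq (GRCm38.p6), which run from 250 bases before to 50 bases after an annotated transcript start. The letters were TTTCCCGC, TTTCGCGC, TTTGCCGC and TTTGGCGC on either strand. Some of these matches overlap each other when one is read on the opposite strand. Windows were found for 48 of the 57 genes, 57 windows in all, and 15 of the 57 windows (26.3%) held the letters, against 4.13% of 10765 windows of tested genes and 2.26% of all 32851 windows. The 15 genes were Cdc6, Cdt1, E2f2, Gins3, Lig1, Mcm3, Mcm5, Mcm6, Mcm7, Orc1, Pola1, Pold1, Pold3, Pole2 and Rfc3. Below are 60-base stretches upstream of the start for the 8 genes with a match there, read along the gene, with the E2F letters in capitals.
Cdc6, chr11:98907987-98908046, plus strand: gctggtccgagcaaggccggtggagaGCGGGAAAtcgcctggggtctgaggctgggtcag
Gins3, chr8:95633492-95633551, plus strand: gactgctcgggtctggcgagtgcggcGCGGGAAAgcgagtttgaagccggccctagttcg
Mcm5, chr8:75109330-75109389, plus strand: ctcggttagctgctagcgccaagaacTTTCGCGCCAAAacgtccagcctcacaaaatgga
Mcm6, chr1:128359782-128359841, minus strand: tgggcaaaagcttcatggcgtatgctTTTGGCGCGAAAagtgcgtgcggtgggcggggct
Mcm7, chr5:138172015-138172074, minus strand: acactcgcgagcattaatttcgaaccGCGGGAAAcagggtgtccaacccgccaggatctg
Orc1, chr4:108579394-108579453, plus strand: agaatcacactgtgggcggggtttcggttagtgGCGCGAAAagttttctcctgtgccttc
Pola1, chrX:93632260-93632319, minus strand: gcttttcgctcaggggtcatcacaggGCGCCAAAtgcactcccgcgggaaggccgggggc
Rfc3, chr5:151651209-151651268, minus strand: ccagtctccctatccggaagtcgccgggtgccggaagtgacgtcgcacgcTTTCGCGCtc
In Mcm5 and Mcm6, the run in capitals is longer because a match on each strand overlaps. A match of letters is a description of the window and does not show that a factor binds there.

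**Figure D1:**
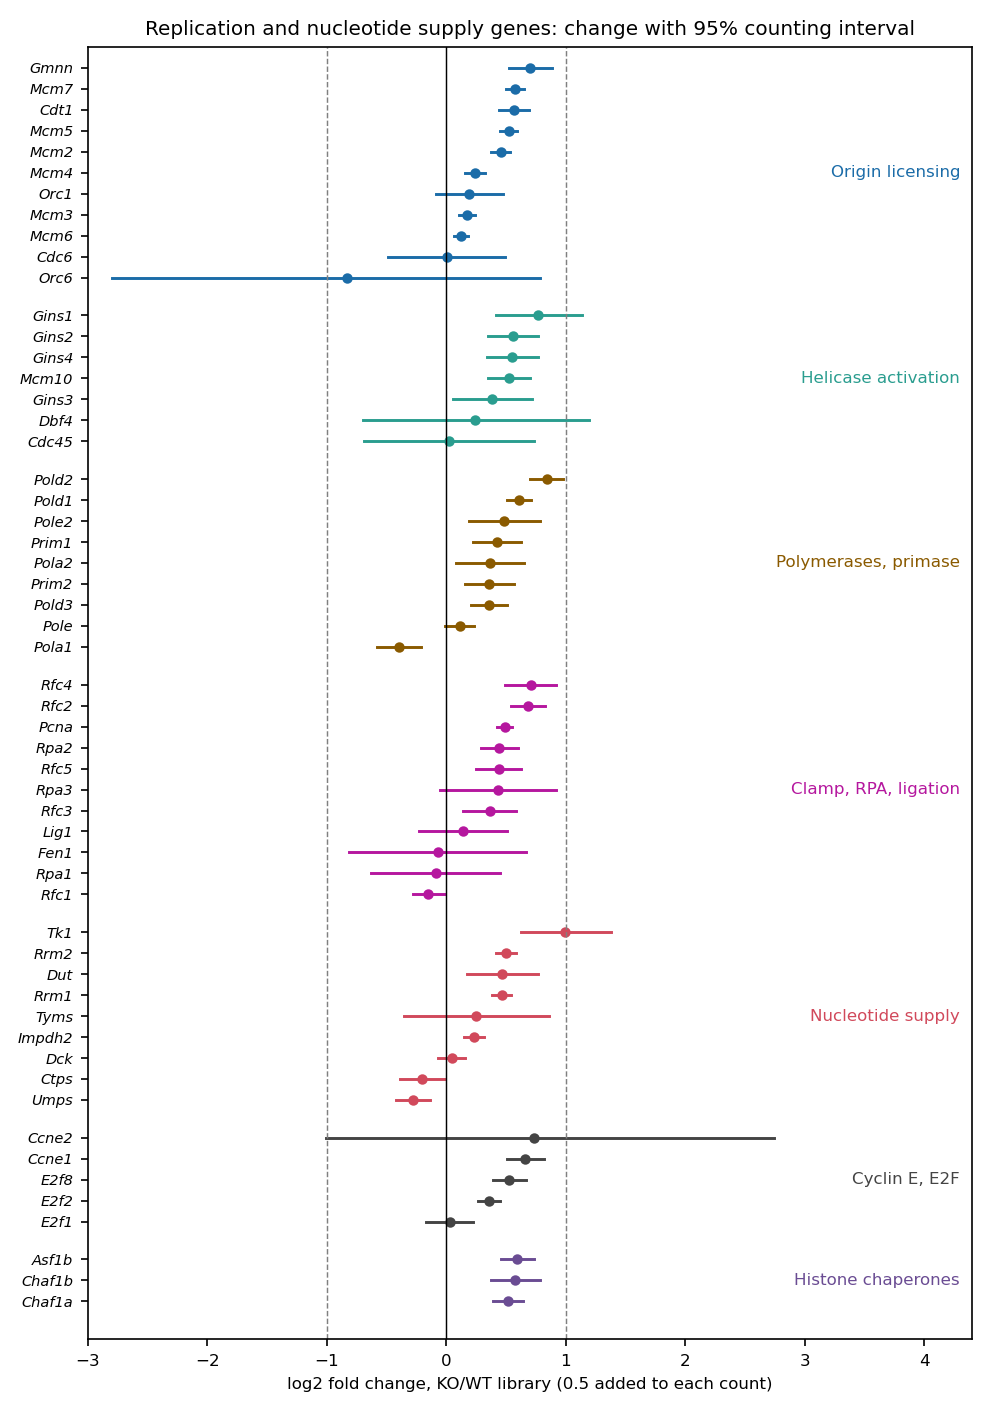
Change of each of the 55 tested genes between the libraries, on the log2 scale (KO over WT, 0.5 added to each count), ordered by role and then by value. Points are log2 fold changes, bars are exact 95% intervals for counting error, and dashed lines mark a 2-fold change. Most points lie between 0 and 1, none lies beyond a dashed line, and Tk1 sits at the right one. Orc2 and Cdc7, with fewer than 10 reads, are not drawn.

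The replication genes were mostly higher in the KO library, each by less than 2-fold. Reads on the 57 genes summed to 49261 (WT) and 59284 (KO), which is 0.741% of all WT reads and 0.958% of all KO reads. The summed log2 fold change was 0.37 (95% interval 0.35 to 0.39). Of the 57 genes, 55 had at least 10 reads over both libraries and were tested, and Orc2, an ORC subunit with 5 WT and 2 KO reads, and Cdc7, the kinase that acts on loaded MCM rings, with 3 WT and 2 KO reads, had too few. Among the 55, 48 had a positive log2 fold change. The median of the 55 was 0.43, against -0.02 over all 10881 genes tested.

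No member was called lower and none higher at an adjusted p under 0.05 (exact binomial test with Benjamini-Hochberg adjustment over all tested genes) and a change of at least 2-fold. Over all tested genes, 5.53% were called lower and 2.57% higher by that rule. At an unadjusted p under 0.05, 4 members were lower and 37 higher, against 2773 lower and 2594 higher of all 10881 tested genes. edgeR's exact test with an assumed variation between replicates was used with the same fold changes and the same 2-fold limit. No member reached that limit, so its 0 calls among members were fixed beforehand. With the fold limit set at 1.5, no member was lower and 9 were higher, namely Tk1, Pold2, Gins1, Rfc4, Gmnn, Rfc2, Ccne1, Pold1 and Asf1b, against 11.5% of all tested genes lower and 7.02% higher. The 95% interval lay wholly above 0 for 37 of the 55 (67.3%), against 23.5% of all tested genes. It lay wholly below 0 for 4, Pola1, Umps, Ctps and Rfc1 (7.27%), against 25.0% of all tested genes.

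**Figure D2:**
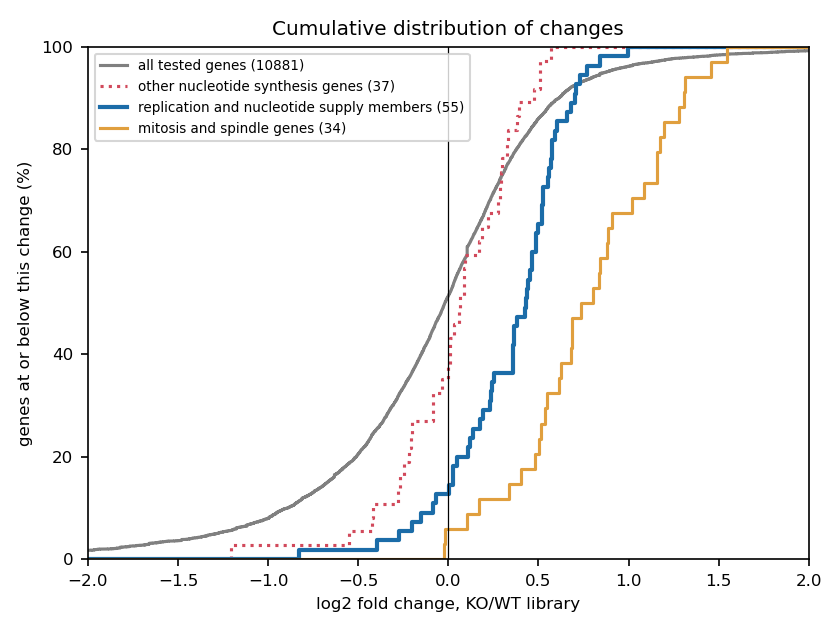
Cumulative share of genes (vertical axis) at or below each log2 fold change (horizontal axis, KO over WT) for the 55 replication and nucleotide supply genes (blue), 37 other nucleotide synthesis genes (dotted), 34 mitosis genes (orange) and all 10881 tested genes (grey), of which those beyond -2 or 2 are off the axis. The curve of the replication genes crosses its midpoint at 0.43, that of the mitosis genes at 0.77, that of the other nucleotide genes at 0.07 and that of all genes at -0.02.

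Most reads of the origin licensing genes were on the MCM subunits. All 6 genes of the MCM2-7 ring were higher in the KO library beyond counting error, and their summed reads went from 17752 to 20746, a log2 fold change of 0.33 (0.30 to 0.36). The 6 did not move by the same amount. Mcm6 had 4458 WT and 4514 KO reads and a log2 fold change of 0.12 (0.06 to 0.18). Mcm3 had 3289 and 3452 reads (0.17, 0.10 to 0.24), and Mcm4 had 2346 and 2580 (0.24, 0.16 to 0.32). The intervals of these 3 subunits end below those of the other 3, which were close to each other. Mcm2 had 2317 WT and 2953 KO reads (log2 fold change 0.45, 0.38 to 0.53), Mcm5 had 2965 and 3956 (0.52, 0.45 to 0.59), and Mcm7 had 2377 and 3291 (0.57, 0.50 to 0.65).

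Among the loaders, Cdt1, which brings the MCM ring to the origin, had 875 WT and 1206 KO reads, and its log2 fold change was 0.57 (0.44 to 0.69). Geminin (Gmnn), the protein that binds Cdt1 and stops further loading after S phase has begun, had 429 and 649 reads, the highest value of the licensing genes at 0.70 (0.52 to 0.88). Loader and inhibitor were thus both higher, and their log2 fold changes differed by -0.13 (-0.35 to 0.09), an interval that holds 0. Once the trend of all genes with transcript length was taken off, this difference was 0.04 (-0.18 to 0.26). Gmnn then had 0.45 and was no longer the highest, as Mcm5 and Mcm7 had 0.54 each. Orc1 had 206 WT and 219 KO reads (log2 fold change 0.19, -0.09 to 0.47). Cdc6, which joins ORC at the origin, had 75 and 70 reads (0.01, -0.49 to 0.49). Orc6 had the lowest value of the licensing genes, -0.83, on 10 WT and 5 KO reads, with an interval from -2.79 to 0.79. The read numbers of Cdc6 and Orc6 do not show a change in either direction at this depth. In all, 8 of the 11 tested licensing genes were above 0 beyond counting error and none was below, with a median of 0.24.

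Of the genes that turn loaded rings into helicases, all 4 GINS subunits were higher. Gins1 had 107 WT and 170 KO reads and the highest value of this group, 0.77 on the log2 scale (0.41 to 1.14). Gins2 had 333 and 456 reads (0.56, 0.35 to 0.77), and Gins4 had 326 and 445 (0.55, 0.34 to 0.76). Gins3, whose promoter stretch is among those printed, had 140 and 170 reads (0.38, 0.05 to 0.72), and the intervals of all 4 subunits overlap. The interval of Gins3 held 0 (-0.05 to 0.62) once the trend of all genes with transcript length was taken off. Mcm10, which helps the helicase start moving, had 460 WT and 615 KO reads and a log2 fold change of 0.52 (0.35 to 0.70). Cdc45 had the lowest value among the tested genes of this group, 0.03 (-0.68 to 0.73), on 37 WT and 35 KO reads. Dbf4, the regulatory partner of Cdc7, had 20 and 22 reads (0.24, -0.70 to 1.19). The median of the 7 tested genes was 0.52, and 5 of the 7 were above 0 beyond counting error.

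Among members with over 300 reads, the highest and the lowest log2 fold change were both those of DNA polymerase genes. With the length trend taken off, by the longest annotated transcript of each gene, the highest of these members was Chaf1a (0.91) and the lowest Ctps (-0.28). Pold2 then had 0.64 and Pola1 -0.15. Pold2, an accessory subunit of polymerase delta, which copies mainly the lagging strand, had 688 WT and 1145 KO reads and a log2 fold change of 0.84 (0.70 to 0.98). Pold1, the catalytic subunit of the same enzyme, had 1344 and 1902 reads (0.61, 0.50 to 0.71), and Pold3 had 686 and 817 (0.36, 0.21 to 0.51). Summed over these 3 genes the log2 fold change was 0.61. Pola1, the catalytic subunit of polymerase alpha, which starts each new strand, went the other way, with 588 WT and 416 KO reads and a log2 fold change of -0.39 (-0.58 to -0.21). The difference between Pold2 and Pola1 was 1.23 on the log2 scale (1.003 to 1.47), and 0.79 (0.56 to 1.02) with the length trend taken off. Per length, Pold2 stood at 3.80 times the level of Pola1 among WT reads and 8.94 times among KO reads.

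The partners of Pola1 in the polymerase alpha-primase complex did not go down with it. Pola2 had 190 WT and 228 KO reads (log2 fold change 0.37, 0.08 to 0.65). The primase subunits Prim1, with 374 and 467 reads (0.42, 0.23 to 0.62), and Prim2, with 355 and 424 (0.36, 0.15 to 0.57), were higher as well. Of polymerase epsilon, which copies the leading strand, the catalytic subunit Pole had 1123 WT and 1128 KO reads (0.11, -0.01 to 0.23), and Pole2 had 165 and 215 (0.49, 0.19 to 0.79). Pola1 has a transcript of 5346 bases and Pole one of 7163 bases, the longest of this group, which bears on the trend with length given further on. Of the 9 genes, 7 were above 0 beyond counting error and 1 was below.

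At the fork, Pcna, the sliding clamp that holds the polymerases on DNA, had the highest level per length of all members, 405 RPKM in the WT and 567 in the KO library (RPKM is the read number scaled to transcript length in kilobases and to library total in units of 1000000 reads). It had 4086 WT and 5327 KO reads and a log2 fold change of 0.49 (0.43 to 0.55). Of the clamp loader, the small subunits Rfc4, with 301 and 457 reads (0.71, 0.49 to 0.92), and Rfc2, with 691 and 1031 (0.68, 0.54 to 0.82), were the highest of the fork genes. Rfc5 had 414 and 522 reads (0.44, 0.25 to 0.63), and Rfc3 had 311 and 372 (0.36, 0.14 to 0.59). The large subunit Rfc1 had 1054 WT and 883 KO reads and was the lowest of the group at -0.15, with an interval, -0.28 to -0.02, that ends close to 0 and an adjusted p of 0.052 (exact binomial test). With the length trend taken off, it was 0.03 (-0.10 to 0.16), and all 5 loader genes were then positive.

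Of the RPA subunits, Rpa2 had 610 WT and 772 KO reads (log2 fold change 0.44, 0.29 to 0.60). Rpa3 had 67 and 84 reads (0.43, -0.05 to 0.92), and Rpa1, the largest subunit, had 64 and 56 (-0.09, -0.63 to 0.45). Fen1, the nuclease that trims Okazaki fragments, had 35 and 31 reads (-0.07, -0.82 to 0.67), and Lig1, the ligase that seals them, had 125 and 128 (0.14, -0.23 to 0.51). For Rpa1, Fen1, Lig1 and Rpa3 the counts leave the direction undetermined. The median of these 11 fork genes was 0.43, with 6 above 0 and 1 below 0 beyond counting error.

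Of the 9 nucleotide supply genes, 5 were above 0 and 2 below 0 beyond counting error, with a median of 0.25. Tk1, the thymidine kinase that salvages thymidine in S phase, had the highest value of all members, with 93 WT and 173 KO reads and a log2 fold change of 0.996 (0.63 to 1.38), 1.995-fold and thus just inside the 2-fold limit. With TMM factors, DESeq2 size factors or upper-quartile scaling it was just past that limit and was called higher. Both ribonucleotide reductase subunits were higher. Rrm1 had 2415 and 3094 reads (0.46, 0.39 to 0.54), and Rrm2 had 1997 and 2626 (0.50, 0.42 to 0.58). With the length trend taken off, Rrm1 stood above Rrm2 by 0.36 (0.24 to 0.47), where the uncorrected difference was -0.04 (-0.15 to 0.08). Dut, which clears dUTP, had 168 WT and 216 KO reads (0.47, 0.17 to 0.77). Tyms, which makes dTMP, had 46 and 51 reads (0.25, -0.35 to 0.86), and Dck, the deoxycytidine kinase, had 1268 and 1217 (0.05, -0.07 to 0.16). Of these 6 genes of deoxynucleotide supply 4 were above 0 beyond counting error, and their summed log2 fold change was 0.41.

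The other 3 supply genes make ribonucleotides. Umps, which completes UMP synthesis, had 941 WT and 723 KO reads and the lowest value of the supply genes, -0.28 (-0.42 to -0.13). Ctps, which makes CTP from UTP, had 541 and 438 reads (-0.20, -0.38 to -0.02). Impdh2, the gate to GTP synthesis, had 2203 and 2402 (0.23, 0.15 to 0.31). Both pyrimidine genes were lower beyond counting error, the purine gene was higher, and their reads together had a log2 fold change of 0.06 (-0.01 to 0.12). With the length trend taken off, Impdh2 had 0.06 (-0.03 to 0.14), an interval that holds 0.

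Of the S-phase regulators, Ccne1, the cyclin E that drives entry into S phase, had 578 WT and 850 KO reads and a log2 fold change of 0.66 (0.51 to 0.82). Its relative Ccne2 had the highest value, 0.73, on only 5 and 8 reads (-1.01 to 2.74). The E2F genes differed among themselves. E2f1, an activating E2F, had the lowest value, 0.03 (-0.17 to 0.22), on 456 WT and 432 KO reads. E2f2, another activator, had 1687 and 2010 reads (0.36, 0.26 to 0.45), and E2f8, a repressor of E2F targets, had 777 and 1042 (0.53, 0.39 to 0.66). The log2 fold change of E2f1 was below that of E2f2 by more than counting error (difference -0.33, -0.55 to -0.12), and that of E2f8 was above that of E2f2 by a difference of 0.17 (0.01 to 0.34). With the length trend taken off, the first difference was -0.58 (-0.79 to -0.36) and the second 0.04 (-0.12 to 0.21), which holds 0.

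The 3 histone chaperones of the fork, which place histones on new DNA, were all higher and, without a length correction, close to each other. Chaf1a and Chaf1b, subunits of CAF-1, had 948 and 1262 reads (log2 fold change 0.52, 0.39 to 0.64) and 345 and 479 reads (0.58, 0.38 to 0.78). Asf1b, which hands histones to CAF-1, had 744 WT and 1044 KO reads (0.59, 0.46 to 0.73). With the length trend taken off, Chaf1a had 0.91 (0.79 to 1.04), Chaf1b 0.52 (0.32 to 0.72) and Asf1b 0.41 (0.28 to 0.55). The intervals of Chaf1a and Asf1b then did not overlap.

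**Figure D3:**
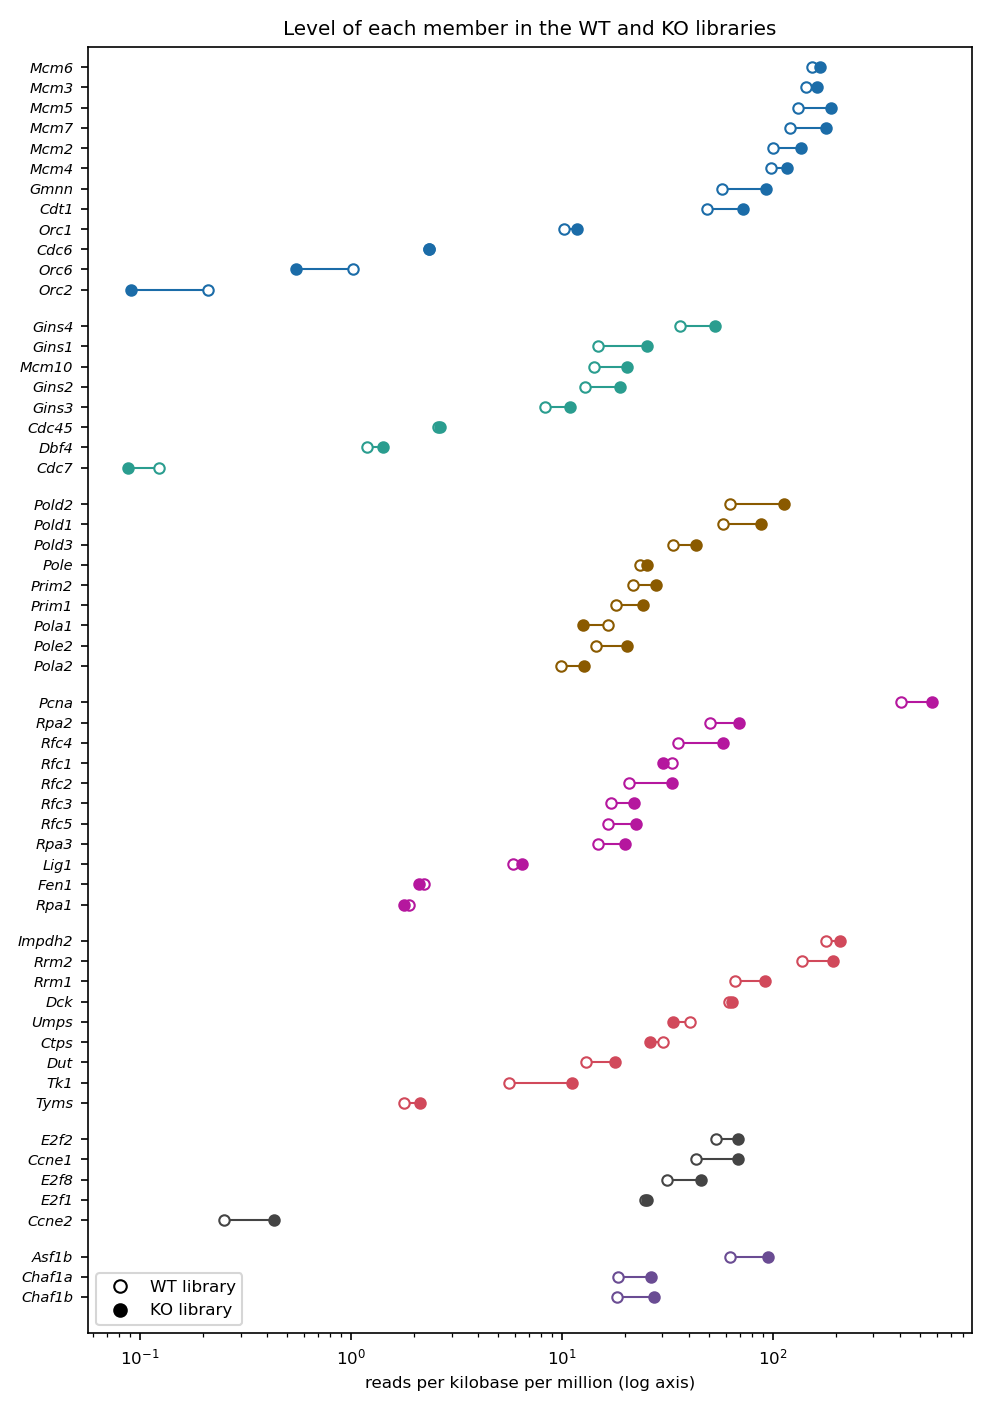
Level of every member in the WT library (open points) and the KO library (filled points), in RPKM (by the longest transcript) on a log axis, by role. The levels run from about 0.1 for Cdc7 to 405 (WT) and 567 (KO) for Pcna, and the distance between the points of a gene is small beside the spread between genes.

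The levels of the members spanned a wide range in both libraries, and the order was dominated by the clamp, the MCM ring, ribonucleotide reductase and Impdh2. After Pcna, the WT levels per length were 178 RPKM for Impdh2, 154 for Mcm6, 144 for Mcm3, 137 for Rrm2, 132 for Mcm5 and 121 for Mcm7. In the KO library, Impdh2 stood at 209 RPKM, Rrm2 at 194, Mcm5 at 189, Mcm7 at 180, Mcm6 at 168 and Mcm3 at 163. The polymerases were lower, from 9.93 (Pola2) to 62.9 (Pold2) RPKM in the WT library. At the other end were Cdc7 with 0.123, Orc2 with 0.211 and Ccne2 with 0.250 WT RPKM, each on 5 reads or fewer.

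Genes of one machine stood at very different levels, and most of the lowest belonged to genes with several annotated transcripts. The 29 members with 1 curated RefSeq transcript had a median of 35.4 RPKM in the WT library, the 18 with 2 had 27.5, and the 10 with 3 or more (Ccne2, Cdc45, Cdc6, Cdc7, Fen1, Lig1, Mcm7, Orc2, Orc6 and Rfc1) had 2.28. Mcm7 at 121 and Rfc1 at 33.4 RPKM were the exceptions among those 10, and Rpa1 (1.90), Tyms (1.78) and Dbf4 (1.20) were low with 2 transcripts each. Over all protein-coding genes with reads the medians were 8.27, 3.38 and 2.10 RPKM. How the counting treated reads that fit several transcripts is not given in the sources used here, and its part in the low values was not tested. The 8 tested genes with 3 or more transcripts had a median log2 fold change of 0.02, with 1 above 0 and 1 below 0 beyond counting error. The 29 genes with 1 transcript had a median of 0.46, with 24 above and 1 below. Most of the 8 had few reads and so wide intervals. Summed over reads, the log2 fold change was 0.36 (0.30 to 0.43) for the 10 genes and 0.41 (0.39 to 0.43) for the 29. Most reads of the 10 were on Mcm7 and Rfc1.

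**Figure D4:**
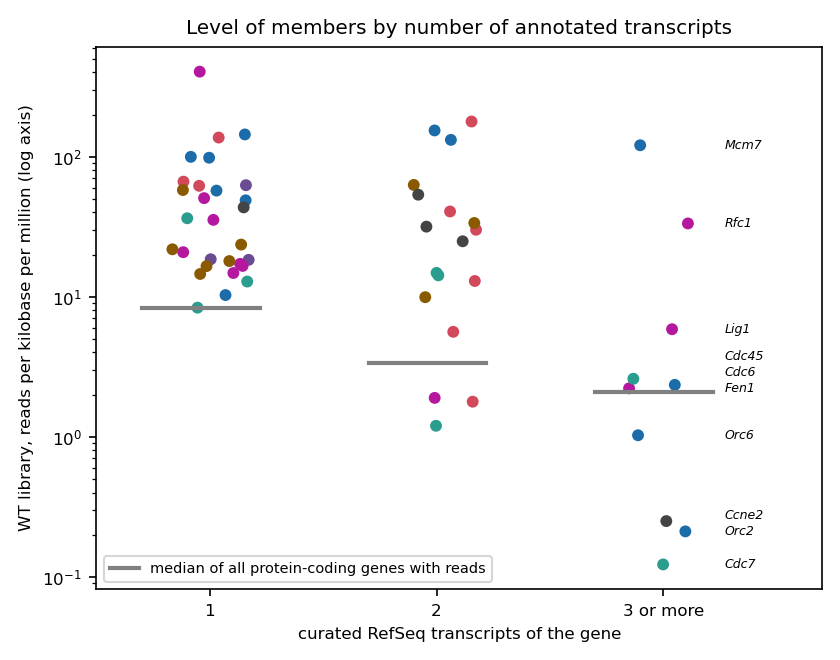
WT level of each member, in RPKM on a log axis, against the number of curated RefSeq transcripts of the gene. Each point is a gene, coloured by role as in the plot of changes, and grey lines are medians over all protein-coding genes with reads, at 8.27, 3.38 and 2.10. With 3 or more transcripts, 8 of the 10 members lie below 6, and Mcm7 and Rfc1 lie above 30.

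Reads also set how firmly a member's direction was measured. The 43 members with over 300 reads over both libraries had a median log2 fold change of 0.45, with 35 above 0 and 4 below 0 beyond counting error. Of the 12 tested members with 300 reads or fewer, 2 were above and none was below, with a median of 0.19. Among the rarely counted genes, only Tk1 and Gins1 had an interval above 0.

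Across the transcriptome, the log2 fold change fell with transcript length (Spearman's rho -0.37 over 10792 genes and -0.30 over the 55 members, given as a description, since genes of a library pair share its preparation). The members' medians lay above those of all genes at each of 3 ranges of length. Of transcripts up to 2573 bases, members had a median of 0.49 and all tested genes 0.20. From there to 4206 bases the medians were 0.37 and -0.01, and for longer transcripts 0.12 and -0.28. With the trend of all genes taken off by a loess fit, the members' median was 0.32, with 35 above 0 (63.6%) and 2 below 0 (3.64%) beyond counting error, against 23.5% and 20.9% of 10792 genes under the same correction. Of the 37 that had been above, 34 remained, Gins3, Pole2 and Impdh2 did not, and Pole was added. Of the 4 that had been below, Umps (-0.25, -0.39 to -0.11) and Ctps (-0.28, -0.46 to -0.09) remained, while Pola1 (-0.15, -0.33 to 0.03) and Rfc1 (0.03, -0.10 to 0.16) did not. Pole moved from 0.11 to 0.48, and Chaf1a, with a transcript of 7698 bases, from 0.52 to 0.91. Length is that of the longest annotated transcript of a gene, whether or not these cells express it, and corrected values and orders rest on that choice. The part of length in the members' values was not tested beyond this.

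**Figure D5:**
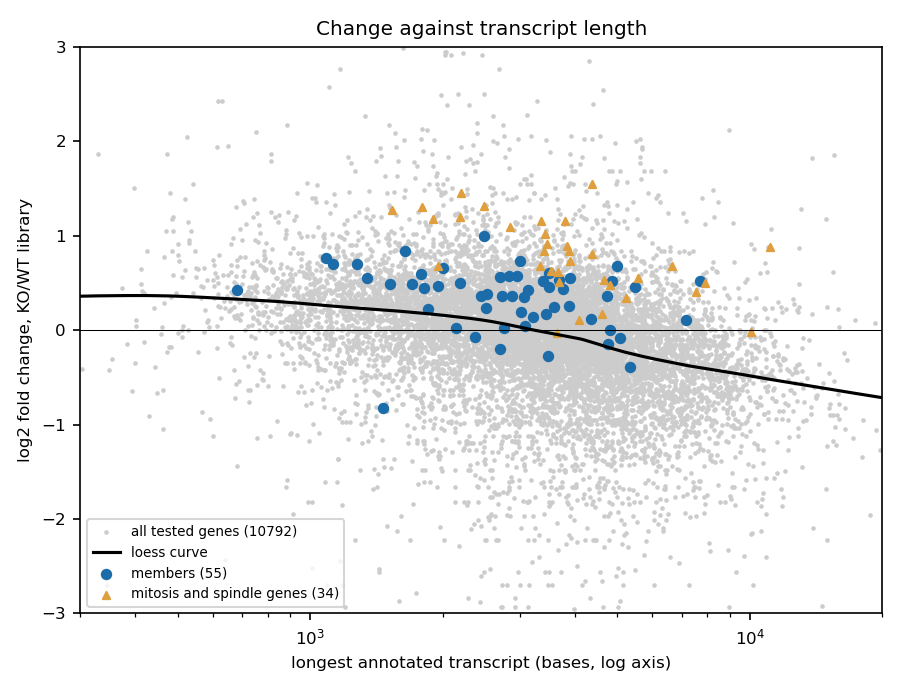
Log2 fold change (KO over WT) against transcript length in bases (log axis) for 10792 tested genes (grey, values beyond -3 or 3 off the axis), the 55 members (blue circles) and 34 mitosis genes (orange triangles), with the loess curve of all genes. The curve falls with length, and most members lie above it at short, middle and long transcripts alike.

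The 15 genes with the letters had a median log2 fold change of 0.36, 11 above 0 and 1 below 0 beyond counting error. The 31 tested genes whose windows lacked them had a median of 0.44, 19 above and 3 below. After the length correction, the medians were 0.29 with the letters and 0.32 without. Of the ring genes with a window, Mcm7 and Mcm5, with 2 matches each, had the largest changes and Mcm6, with 3 matches, the smallest. Mcm3, also with 2 matches, had the next smallest (0.17), and Mcm2, without a match, had 0.45. The length correction exchanged the lowest places, with Mcm3 at 0.20 and Mcm6 at 0.25. The CCAAT box (CCAAT or its reverse complement) was in 52.6% of the members' windows, against 38.0% for tested genes and 37.4% of all windows. TTTGAA, the CHR element known from genes of G2 and mitosis, was in 22.8%, against 11.8% for tested genes and 17.9% of all windows.

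Other genes of the same processes were read from lists chosen by function. Of 33 further replication genes tested, 20 were above 0 (60.6%) and 3 below 0 (9.09%) beyond counting error, with a median of 0.25. The shares over all tested genes were 23.5% above and 25.0% below. Nasp, a histone chaperone, was the only one called, higher on 8 WT and 20 KO reads (log2 fold change 1.37, 0.18 to 2.82), and Wdhd1, a fork protein, was the lowest with 664 and 472 reads (-0.39, -0.56 to -0.21). Mcm8, a helicase of DNA repair related to the MCM ring, had 81 and 151 reads and 0.999 (0.60 to 1.41), just inside the limit. Of 37 further genes of nucleotide metabolism, 12 were above (32.4%) and 5 below (13.5%), with a median of 0.07. Adssl1, an enzyme of AMP synthesis, was called lower on 28 WT and 11 KO reads (-1.20, -2.40 to -0.19).

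Of 27 further genes of the G1 to S transition, 13 were above 0 (48.1%) and 5 below (18.5%), with a median of 0.29. Among all tested genes, 23.5% were above, 25.0% below, 2.57% called higher and 5.53% called lower. Cks1b, a partner of cyclin-dependent kinases, was called higher with 335 WT and 728 KO reads (log2 fold change 1.22, 1.04 to 1.42). Cdk6, a kinase that acts with D cyclins in G1, was called lower with 442 and 144 reads (-1.51, -1.79 to -1.24). Ccnd2, a D cyclin counted more often than any member, had 7454 and 5129 reads (-0.43, -0.49 to -0.38).

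The mitosis genes, which act after replication is complete, stood beside the members with larger values. Their reads went from 0.438% of all WT reads to 0.696% of all KO reads. Of 34 tested, 27 were above 0 (79.4%) and none below 0 beyond counting error, and the median was 0.77. All tested genes had 23.5% above and 25.0% below. After the length correction, the median was 0.91 for this list and 0.32 for the members. Of the 34, 9 were called higher and none lower, against 2.57% and 5.53% of all tested genes. The 9 were Plk1, Ccnb1, Cdc20, Ccnb2, Ube2c, Aurka, Cdca8, Cenpa and Kif2c. Plk1, a kinase of mitotic entry, had 922 WT and 2356 KO reads and a log2 fold change of 1.46 (1.35 to 1.57). Ccnb1, the mitotic cyclin B1, had 582 and 1348 reads (1.32, 1.17 to 1.46). Mki67, a widely used marker of dividing cells, had 4918 and 4513 reads (-0.02, -0.08 to 0.04), and 0.47 (0.41 to 0.53) after the length trend was taken off. In the mitosis list the highest value was that of Tpx2, a spindle factor, 1.55 on 3 and 9 reads, with an interval from -0.31 to 4.21, and the lowest that of Prc1, another spindle factor, -0.03 on 11 and 10 reads (-1.43 to 1.34). In the promoter windows of this list, E2F letters were in 3.13% and TTTGAA in 78.1% of 32 windows, against 26.3% and 22.8% for the replication members. In a bulk library, a larger share of cells in a phase and more RNA per cell cannot be told apart.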

How the data were processed

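RNA-seq of Th17 cells was done with 1 library per genotype. According to the study's methods, reads were mapped to mm10 with SOAP2, and the submitters' processing notes also name bcl2fastq, HTSeq, Bowtie and SICER 1.1, without roles. The authors deposited raw, unscaled counts per gene of reads with a unique assignment, so reads shared by near-identical copies are lost. Each table's heading states a total that its counts add up to. Genes without reads are not listed and were set to 0. The annotation and the use of strand in counting are not given in the sources used here. The 6 ChIP-seq samples of the series were not analysed here.

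Fold changes were taken on the log2 scale between counts divided by library totals, after adding 0.5. Genes with 10 or more reads in the 2 libraries together, 10881 in all, entered an exact binomial test (two-sided, SciPy 1.17.1) that compared the KO share of a gene's reads with that of all reads. Values of p were adjusted by Benjamini-Hochberg, and calls needed an adjusted p below 0.05 as well as a 2-fold difference. Exact (Clopper-Pearson) 95% intervals cover counting error only. With 1 library a group, no residual degrees of freedom are left for a quasi-likelihood test, so edgeR 4.0.16 was used with an assumed variation and for TMM factors, and DESeq2 1.42.0 for size factors. At these depths 3 reads are 0.451 CPM in the WT and 0.485 CPM in the KO library. Of 13704 gene names, 12841 matched a RefSeq symbol and 804 an older symbol. Longest transcripts and their GC content were taken from GENCODE M21, for 99.2% of tested genes, and all levels per length were computed from the counts. Scripts were tested on simulated data.

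The members and all gene lists were chosen with earlier results of these data known. Every member could be named. In each role group the lowest and highest log2 fold changes were always named, and of the other lists the genes called and otherwise the lowest and highest. Mcm8, Ccnd2 and Mki67 were named after their values were seen. For 1 gene, the value is not reported here.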

Additional observations from a re-analysis of the deposited data

How the results depend on the processing

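The 6 alternatives that recompute fold changes (3 scalings, a pseudocount of 5, and corrections for length and for GC content) gave 330 values of single members, of which 5 changed sign and 3 came past the threshold. The other alternatives (read filters, fold limit, assumed variation) leave fold changes as they are. Members called higher numbered 1 with TMM factors, 1 with DESeq2 size factors and 1 with upper-quartile scaling, each time Tk1 (0 with library totals), and 9 with a fold limit of 1.5. Members below counting error numbered 2 with the length correction and 2 with the GC correction (4 without), and the length correction moved the median from 0.43 to 0.32. The values that changed sign were Cdc45 (-0.12), E2f1 (-0.042), Rfc1 (0.029) and Rpa1 (0.13) with the length correction and E2f1 (-0.051) with the GC correction, and each interval but that of Rfc1 held 0 without a correction.

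edgeR's exact test with an assumed variation between replicates of 0.1, 0.2 and 0.4 called 0 members in each direction. That number was fixed by the unchanged 2-fold limit, which no member reached with library totals. Over all genes, edgeR's test called 450, 131 and 9 lower and 203, 65 and 7 higher. With the length correction, 465 of 10792 genes were called lower and 266 higher, and without it 602 and 280 of 10881. Read depth limits Orc2, Orc6, Cdc7, Ccne2 and Dbf4, whose intervals are wide.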
